A study of Homo sapiens with 16 samples.

Results

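Mitochondrial fusion and fission genes were described by 10 rows of the deposited expression table, namely MFN1, MFN2, OPA1, OMA1, YME1L1, DNM1L, FIS1, MFF, MIEF1 and MIEF2, which were chosen by name out of 43388 genes listed. All 10 were detected in every one of 16 libraries, and all 10 passed the minimum mean of 1 TPM (transcripts scaled for gene length to a fixed total per library) that left 16122 genes for testing. RNA came from cardiomyocytes differentiated from WTC11, an established human induced pluripotent stem cell line carrying no engineered allele according to the labels, and it was collected in 4 groups of 4 libraries each. Day 16 RPMI/B27 was the starting population in the standard basal medium RPMI with the B27 supplement. The other 3 groups were kept until day 30 in the same medium (Day 30 RPMI/B27), in RPMI/B27 at a glucose concentration of 5 mM (Day 30 RPMI_glcM/B27), or in B27 with Human Plasma-Like Medium, a medium formulated after the metabolites of human plasma (Day 30 HPLM/B27). All groups shared the line, its wild-type genotype and the small-molecule differentiation protocol, so the replicates are wells of a single line and p-values measure the spread between wells only. Time and medium were compared in 6 pairs of groups, 3 against Day 16 RPMI/B27 and 3 among the media at day 30.

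Mitochondria join and divide continually, and the balance sets the shape of the network, which in the heart muscle cell is densely packed between the myofibrils. MFN1 and MFN2 are the outer-membrane GTPases that tether and merge neighbouring mitochondria, and OPA1 is the inner-membrane GTPase that merges inner membranes and holds the cristae together. The proteases OMA1 and YME1L1 cut OPA1 into short forms, OMA1 mainly under stress and YME1L1 constitutively. DNM1L encodes DRP1, the dynamin-related GTPase that constricts the organelle, and FIS1, MFF, MIEF1 (MiD51) and MIEF2 (MiD49) are outer-membrane proteins that recruit or regulate it.

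Positions are from a GENCODE annotation of the build used for alignment (hg38, identical in coordinates to GRCh38). It need not be the annotation behind the counts, which is not given in the sources used here. The fusion genes lie at chr3:179347709-179394936 (MFN1), chr1:11980181-12015211 (MFN2) and chr3:193593144-193697811 (OPA1), all on the plus strand. OMA1 at chr1:58415384-58546802 and YME1L1 at chr10:27110111-27155266 are on the minus strand. The fission genes lie at chr12:32679200-32745650 (DNM1L, plus), chr7:101239458-101252316 (FIS1, minus), chr2:227325151-227357833 (MFF, plus), chr22:39499432-39518132 (MIEF1, plus) and chr17:18260597-18266552 (MIEF2, plus). In RefSeq the spans of OMA1 (chr1:58480719-58546726) and FIS1 (chr7:101239472-101245081) are shorter. Exons of OPA1 overlap the antisense gene OPA1-AS1, and exons of OMA1 overlap DAB1 on the same strand. Opposite-strand genes also overlap YME1L1 (MASTL) and DNM1L (YARS2), and MIURF, which was not among the genes listed, overlaps MIEF1 on the same strand. Each overlap is between exons of the member and the whole span of the other gene, so shared exons were not tested. The libraries were stranded, but the strand setting of the counting is not given in the sources used here. Whether any reads of overlapping genes were counted for a member is therefore not known. OPA1-AS1 held 17 to 49 recovered reads per library against 1467 to 2803 for OPA1, whereas DAB1 held 409 to 1134 reads against 154 to 388 for OMA1.

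The sequences before the starts of OPA1 and MFN1 are shown because OPA1 was the member called in the most comparisons on one of the scales used below (4 of 6) and MFN1, the outer-membrane GTPase, was called nowhere on them. They are RefSeq promoter records of GRCh38.p14, plus strand, at chr3:193592958-193593143 for OPA1 and chr3:179347459-179347708 for MFN1, and bases that an annotated transcript of the gene already covers are left out. Capitals mark matches on either strand to letters bound by regulators of nuclear genes for mitochondria or of general promoters, namely GCGCATGCG (NRF1), CCGGAAG (GABP) and GGGCGG (Sp1), where the first motif matched OPA1 on both strands with overlap.
OPA1: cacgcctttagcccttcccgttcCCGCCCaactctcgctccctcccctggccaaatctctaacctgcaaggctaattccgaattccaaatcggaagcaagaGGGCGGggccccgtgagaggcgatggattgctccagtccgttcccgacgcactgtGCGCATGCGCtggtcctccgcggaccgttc
MFN1: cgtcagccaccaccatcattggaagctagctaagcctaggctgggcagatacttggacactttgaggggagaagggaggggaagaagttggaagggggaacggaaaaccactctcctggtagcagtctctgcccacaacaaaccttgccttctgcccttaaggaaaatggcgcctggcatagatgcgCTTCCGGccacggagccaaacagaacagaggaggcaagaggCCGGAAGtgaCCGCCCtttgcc
Within 250 bases before the start, the NRF1 letters were present in OPA1 alone among the 9 members with a record, and in 1.64% of all 35116 promoters. The GABP letters occurred in 3 members (MFN1, FIS1 and MIEF1) and in 8.52% of all promoters, and the Sp1 letters in 8 members and 42.6% of all promoters. Neither TCAAGGTCA, an element for estrogen-related receptors, nor the E-box CACGTG was found in a member, against 0.319% and 6.34% of all promoters. YME1L1 had no record, and the first listed start was used where a gene had several. A match to letters is a description of the window and not a binding site.

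Whole reads recovered from the TPM summed to between 7744768 and 16183655 per library. RNR2 and RN7SK, abundant non-coding RNAs that a total RNA library retains, together with RNR1 made up 50.8% to 63.8% of each library's TPM, so the TPM of every other gene is a share of what was left. The 2 libraries of Day 30 RPMI/B27 highest in RNR1, replicates 3 and 4 with 14387 and 29276 TPM against 49.5 to 6806 in the other libraries, also had the lowest median-of-ratios factors, 0.788 and 0.722 against 0.880 to 1.32. A median-of-ratios factor is the median, over genes, of a library's TPM relative to the typical library, and dividing by it removes a shift that all genes share. Every comparison is therefore given on TPM and on median-of-ratios-scaled TPM (scaled TPM below). Cardiomyocyte markers (7 of 7 present at 1 TPM or more) summed to 7719 to 11526 TPM per library. Single markers moved both ways. From day 16 on TPM, 1 was called higher and 2 lower in RPMI/B27, 2 and 3 in RPMI_glcM/B27, and 1 and 3 in HPLM/B27. On scaled TPM 1 was higher and 1 lower in RPMI_glcM/B27 against RPMI/B27 at day 30, and 1 was lower in HPLM/B27 against RPMI_glcM/B27. The pluripotency markers POU5F1 and NANOG reached at most 0.141 and 0.0549 TPM. The third of that list, LIN28A, reached 4.04 TPM and fell from day 16 in all 3 media on both scales. Markers of hepatic endoderm, the lineage of AFP and ALB, were all 5 detected and moved with the medium, summing to 289 to 522 TPM in Day 30 RPMI/B27, 85.1 to 189 in Day 30 RPMI_glcM/B27 and 61.5 to 178 in Day 30 HPLM/B27, after 382 to 677 at day 16. In each of the 3 media, on both scales, 4 of the 5 were called lower than at day 16 and 1 higher. Fibroblast markers (7 listed) summed to 191 to 349 TPM at day 16 and to 125 to 256, 106 to 145 and 105 to 162 TPM in the 3 groups of day 30. The smooth muscle marker MYH11 was listed at 0 in every library, and the endothelial marker VWF in every library of 3 groups. Smooth muscle markers (4 listed) summed to 317 to 764, 200 to 892, 239 to 316 and 257 to 462 TPM in the order of the groups above, endothelial markers (5 listed) to 13.2 to 54.5 TPM over all libraries, and the cycling markers MKI67 and TOP2A to 124 to 166, 64.1 to 85.5, 55.4 to 74.3 and 31.6 to 97.9 TPM.

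On the TPM scale, which corrects for gene length, MFN2 was the most abundant member with a mean of 144 TPM over the 16 libraries and exceeded YME1L1, next at 75.1 TPM, in 16 of 16 libraries. YME1L1 and OPA1 (70.9 TPM) did not differ beyond their spread, with YME1L1 higher in 10 of 16 libraries and ranges that overlapped in every group. FIS1 followed at 64.1 TPM and exceeded MFF (43.1 TPM) in 16 of 16 libraries, whereas MFF and DNM1L (40.2 TPM) changed places between libraries, MFF being higher in 11. MFN1 stood at 34.9 TPM and OMA1 at 26.7 TPM, with MFN1 the higher in all 16 libraries. The adaptors MIEF2 (6.13 TPM) and MIEF1 (4.096 TPM) were far below the other 8, and their levels rested on 57 to 171 and 75 to 142 reads per library, against 1967 to 5437 reads for MFN2. The lowest TPM of MFN1, MFN2, OPA1, YME1L1, DNM1L, FIS1 and MFF in any library was that of replicate 4 of Day 30 RPMI/B27.

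**Figure D1:**
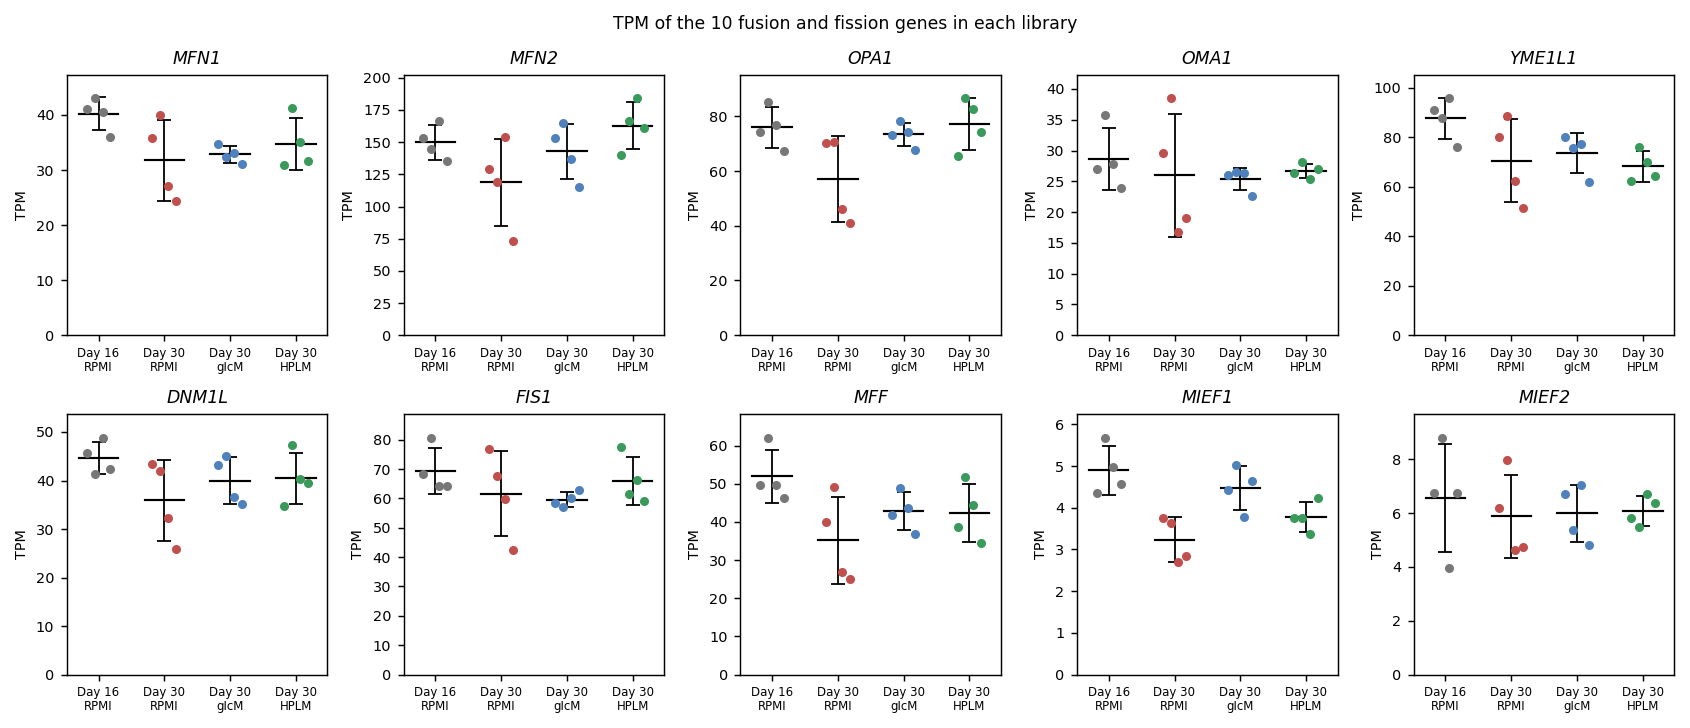
TPM (y axis, from 0) of each of the 10 genes in the 16 libraries, by group on the x axis, where points are libraries, horizontal bars are group means and whiskers are 1 SD (n = 4 per group). In Day 30 RPMI/B27 (red) the 4 libraries spread widely. OPA1 ran from 40.9 to 70.4 TPM with replicates 3 and 4 the lowest, whereas MFN2 was highest in replicate 3, at 154 TPM.

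OPA1 had the clearest order of media. Its TPM at day 16 were 74.2, 85.3, 76.9 and 67.3 in replicates 1 to 4, and at day 30 in RPMI/B27 they were 70.4, 70.4, 46.1 and 40.9. In RPMI_glcM/B27 they were 73.1, 78.2, 74.3 and 67.8, and in HPLM/B27 65.3, 86.6, 82.7 and 74.4. On this scale the groups overlapped in every comparison. On scaled TPM the same libraries lay close together within a group, at 63.9 ± 1.06 at day 16, 59.0 ± 1.92 in Day 30 RPMI/B27, 74.3 ± 3.58 in Day 30 RPMI_glcM/B27 and 82.2 ± 6.31 in Day 30 HPLM/B27 (mean ± SD, n = 4). Both day 30 groups at the lower glucose or in plasma-like medium lay entirely above both RPMI/B27 groups and overlapped each other, and Day 30 RPMI/B27 lay entirely below day 16. Over all genes tested on scaled TPM, 14.7% in RPMI_glcM/B27 and 14.1% in HPLM/B27 were higher without overlap than at day 16, 8.47% and 8.64% were so against Day 30 RPMI/B27, and 10.4% were lower without overlap in Day 30 RPMI/B27 than at day 16.

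MFN2, which besides fusion also tethers mitochondria to the sarcoplasmic reticulum, was 153, 145, 167 and 135 TPM at day 16. In Day 30 RPMI/B27 it was 129, 119, 154 and 73.5 TPM, in Day 30 RPMI_glcM/B27 154, 165, 137 and 115 TPM, and in Day 30 HPLM/B27 140, 166, 184 and 161 TPM. Scaling did not tighten Day 30 RPMI/B27 for this gene, since replicate 3 came to 196 scaled TPM while the other 3 libraries lay between 101 and 112. The scaled means were 127 ± 12.5 at day 16, 128 ± 45.6 in Day 30 RPMI/B27, 144 ± 11.6 in Day 30 RPMI_glcM/B27 and 174 ± 16.6 in Day 30 HPLM/B27 (SD, n = 4). MFN1 was 36.0 to 43.0 TPM at day 16 and 24.3 to 40.1, 31.1 to 34.8 and 30.9 to 41.2 TPM in the day 30 groups in the same order. On TPM the libraries of RPMI_glcM/B27 lay entirely below day 16. Its scaled TPM were 33.9 ± 0.834, 33.3 ± 1.55, 33.3 ± 1.71 and 36.9 ± 2.82, where Day 30 HPLM/B27 lay above both RPMI/B27 groups without overlap and neither difference was called. The same held for 14.1% of all genes against day 16 and for 8.64% against Day 30 RPMI/B27.

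Neither protease was called in any comparison on either scale. YME1L1 was 76.3 to 95.8 TPM at day 16, 51.3 to 88.6 in Day 30 RPMI/B27, 61.9 to 80.1 in Day 30 RPMI_glcM/B27 and 62.6 to 76.2 in Day 30 HPLM/B27, whereas its scaled means spanned only 72.8 to 74.4. YME1L1 had the narrowest range of all members on scaled TPM, with the highest library 1.21 times the lowest. OMA1 was 23.99 to 35.8, 16.8 to 38.5, 22.6 to 26.5 and 25.4 to 28.1 TPM in the 4 groups, and its scaled means were 23.98 ± 2.15, 26.5 ± 4.74, 25.7 ± 0.953 and 28.5 ± 1.47.

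Among fission genes, DNM1L was 41.4 to 48.9 TPM at day 16, 25.9 to 43.4 in Day 30 RPMI/B27, 35.2 to 45.0 in Day 30 RPMI_glcM/B27 and 34.7 to 47.3 in Day 30 HPLM/B27. MFF, a receptor of DRP1 on the outer membrane, was 49.8, 62.1, 49.8 and 46.2 TPM at day 16 and 40.0, 49.1, 26.8 and 25.1 TPM in Day 30 RPMI/B27. Its values were 41.8, 48.8, 43.8 and 36.9 TPM in Day 30 RPMI_glcM/B27 and 38.6, 51.9, 44.4 and 34.5 TPM in Day 30 HPLM/B27. Day 30 RPMI/B27 thus had the lowest mean of MFF, 35.2 TPM, with replicates 3 and 4, the libraries highest in RNR1, at 26.8 and 25.1 TPM. In each medium at day 30, replicate 2 alone reached the range of day 16. MIEF1 was 4.34, 5.68, 4.98 and 4.58 TPM at day 16 and 3.76, 3.64, 2.70 and 2.85 TPM in Day 30 RPMI/B27, without overlap, which held for 16.2% of all genes in this direction. In Day 30 RPMI_glcM/B27 it was 4.42, 5.03, 3.78 and 4.64 TPM, and in Day 30 HPLM/B27 3.76, 3.76, 3.36 and 4.24 TPM. FIS1, the outer-membrane anchor linked to division and mitophagy, was 64.1 to 80.7 TPM at day 16, 42.4 to 76.7 in Day 30 RPMI/B27, 57.1 to 62.8 in Day 30 RPMI_glcM/B27 and 59.0 to 77.4 in Day 30 HPLM/B27, so that the RPMI_glcM/B27 libraries alone lay entirely below day 16. MIEF2 lay between 3.95 and 8.81 TPM, with all 4 groups overlapping. Over all genes tested, 25.9% were lower without overlap in Day 30 RPMI_glcM/B27 than at day 16 and 32.1% in Day 30 HPLM/B27, where YME1L1 and MIEF1 were the members below day 16.

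**Figure D2:**
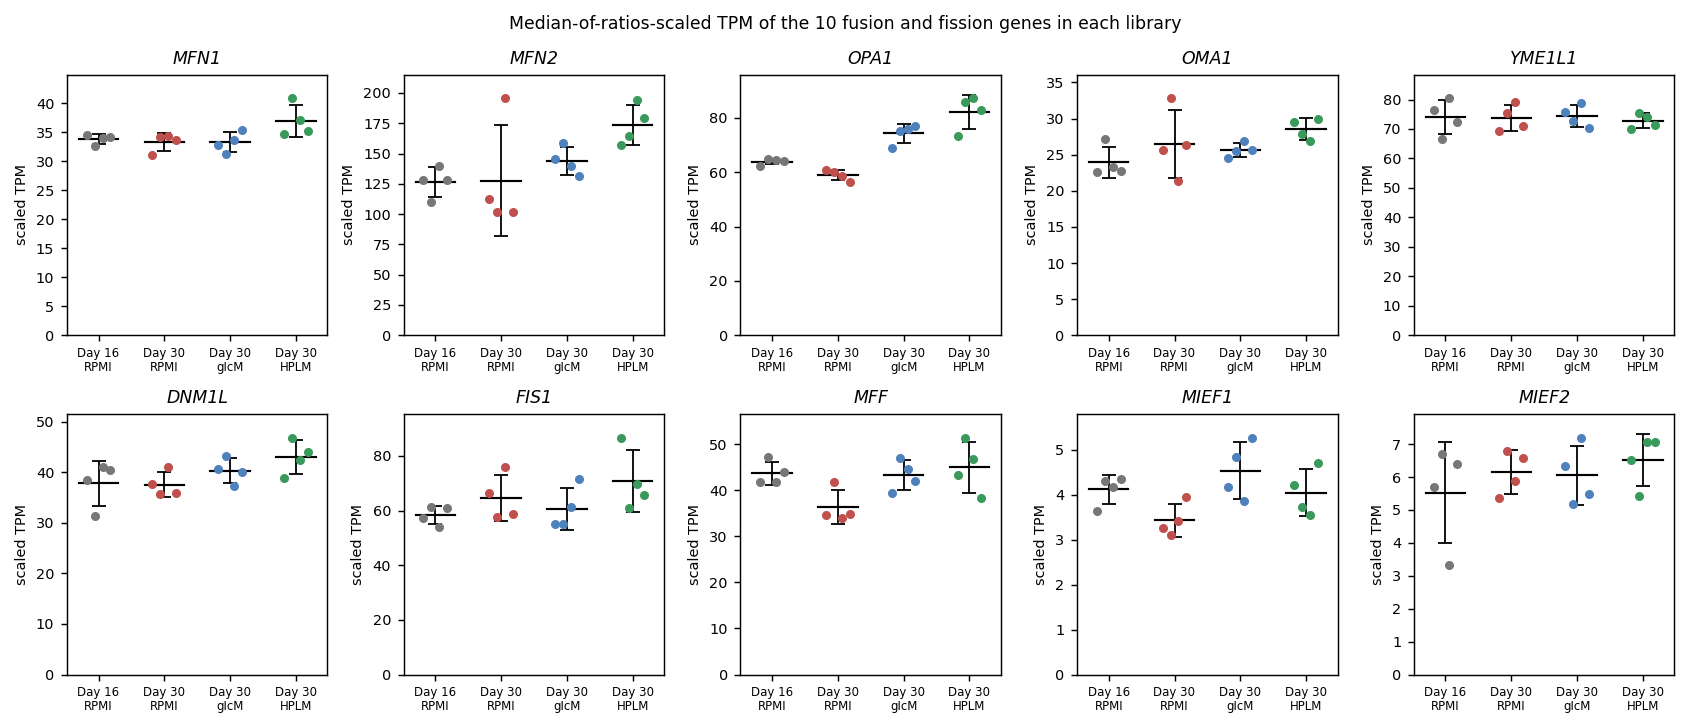
Median-of-ratios-scaled TPM (y axis, from 0) of the same 10 genes and 16 libraries, drawn as group means and 1 SD (n = 4) with a point per library. OPA1 rises from 59.0 in Day 30 RPMI/B27 to 82.2 in Day 30 HPLM/B27 with tight groups, MFN2 has a single library at 196 in Day 30 RPMI/B27, and YME1L1 is level across groups.

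From day 16 to day 30 in RPMI/B27, 2 of the 10 genes fell and none rose on the TPM scale. Over all genes tested, 2.08% were higher and 17.8% lower in this comparison (limma on log2(TPM + 1), adjusted p under 0.05 by Benjamini-Hochberg over 16122 genes), and the median gene was lower by 0.28 on the log2 scale, so 2 of 10 lower is close to the background. The members that fell were both DRP1 adaptors: MFF changed by a log2 fold change of -0.59 (SE 0.19, limma adjusted p = 0.0382) and MIEF1 by -0.48 (SE 0.14, limma adjusted p = 0.0226). OPA1 had -0.45 (SE 0.16) and did not pass, at a limma adjusted p of 0.0603. All 10 log2 fold changes were negative, with a median of -0.34. On scaled TPM 8.62% of all genes were higher and 8.91% lower, and 0 of the 10 members were called, with 1 (MFF, lower) at an unadjusted p under 0.05. MFF then had -0.26 (SE 0.09, adjusted p = 0.0601) and MIEF1 -0.21 (SE 0.11, adjusted p = 0.194). Limma-voom on the recovered reads called MFF alone, lower, at an adjusted p of 0.0490. Without the 2 libraries highest in RNR1 both TPM calls were lost (MFF -0.22, adjusted p = 0.471, MIEF1 -0.32, adjusted p = 0.169). Without replicate 2 or 3 of day 16, or replicate 3 or 4 of Day 30 RPMI/B27, 0 members were called, and without replicate 1 or 2 of Day 30 RPMI/B27 5 were.

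Against day 16, cells in RPMI_glcM/B27 showed no called member on the TPM scale, where 3.34% of all genes were higher and 17.8% lower, and no member had an unadjusted p under 0.05. On scaled TPM, where 13.4% of all genes were higher and 14.2% lower, OPA1 rose by a log2 fold change of 0.21 (SE 0.06, limma adjusted p = 0.0131), 1 of 10 members, and every library of the medium exceeded every library of day 16. The sign of the OPA1 change differed between the scales, since on TPM it was -0.05 (SE 0.16, adjusted p = 0.864), a value above the median of all genes, which was -0.22. On scaled TPM 4 of 5 hepatic endoderm markers fell from day 16 and 1 rose, and 4 of 5 tested fibroblast markers fell and 1 rose. Of the 2 cycling markers 1 fell. The part of these markers in the OPA1 result was not tested.

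In HPLM/B27 against day 16, no member was called on TPM (3.00% of all genes higher, 22.4% lower), and 2 members, YME1L1 and MIEF1, had an unadjusted p under 0.05, both lower. On scaled TPM, with 12.9% of all genes higher and 12.5% lower, OPA1 rose by 0.36 (SE 0.06, limma adjusted p = 0.000366). MFN2 had the larger estimate, 0.45 (SE 0.17), and did not pass (adjusted p = 0.0587), while its scaled TPM lay higher without overlap, as did 14.1% of all genes. Limma-voom on recovered reads called both OPA1 and MFN2 higher, with adjusted p of 0.000200 and 0.0252. Of the 10 scaled log2 fold changes 8 were positive, with a median of 0.21 where the median of all genes was near 0. On scaled TPM 4 of 5 hepatic endoderm markers fell from day 16 and 1 rose, and 3 of 5 tested fibroblast markers fell. Of the 2 cycling markers 1 fell. The part of these markers in the OPA1 result was not tested.

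Lowering glucose alone, seen as RPMI_glcM/B27 against RPMI/B27 at day 30, gave no called member on TPM, where 1.36% of all genes were higher and 0.837% lower. An unadjusted p under 0.05 was found for 2 members, OPA1 and MIEF1, both higher. On scaled TPM OPA1 rose by 0.33 (SE 0.06, limma adjusted p = 0.00250), the 1 member called, against 6.17% of all genes higher and 5.89% lower. The TPM estimate for OPA1 was 0.40 (SE 0.16, adjusted p = 0.240), of similar size but with a wider error. MIEF1 had 0.32 (SE 0.11, adjusted p = 0.0637) and MFF 0.25 (SE 0.09, adjusted p = 0.0917) on scaled TPM, and MFN1 had 0.00 (SE 0.06). On scaled TPM 4 of 5 hepatic endoderm markers and 3 of 5 tested fibroblast markers fell in this comparison, and their part in the OPA1 result was not tested.

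HPLM/B27 against RPMI/B27 at day 30 gave no called member on TPM, with 1.51% of all genes higher and 0.893% lower, and with MFN2 (0.49, SE 0.18) and OPA1 (0.47, SE 0.16) at an unadjusted p under 0.05. On scaled TPM 2 members rose, against 7.05% of all genes higher and 5.87% lower. OPA1 had a log2 fold change of 0.47 (SE 0.06, limma adjusted p = 0.000148), a 1.38-fold difference, and MFF had 0.30 (SE 0.09, limma adjusted p = 0.0436). MFN2 had 0.49 (SE 0.17, adjusted p = 0.0641), and replicate 3 of Day 30 RPMI/B27 decided that call. Without that library it was 0.72 with a limma adjusted p of 0.000274, and limma-voom called it with all libraries (adjusted p = 0.0266). The call of MFF was lost when any of 6 of the 8 libraries was left out and held without replicate 2 of Day 30 RPMI/B27 or replicate 4 of Day 30 HPLM/B27, whereas OPA1 stayed past the threshold without each of the 8 libraries, with log2 fold changes of 0.44 to 0.52, and was 0.43 (adjusted p = 0.00211) without the 2 libraries highest in RNR1. On scaled TPM all 5 hepatic endoderm markers and 3 of 5 tested fibroblast markers fell in HPLM/B27 against RPMI/B27, with sums as given above, and their part in the OPA1 result was not tested. In bulk RNA, fewer cells of a type and less RNA per cell cannot be told apart.

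HPLM/B27 against RPMI_glcM/B27, the media with the same glucose concentration, gave no called member on either scale. The share of all genes called was 0.0496% higher and 0.0186% lower on TPM and 0.999% higher and 0.626% lower on scaled TPM. On TPM no member had an unadjusted p under 0.05, on scaled TPM MFN1 and OPA1 did, both higher, and limma-voom called none. OPA1 differed by 0.14 (95% interval 0.02 to 0.27, adjusted p = 0.280) on scaled TPM and by 0.07 (-0.27 to 0.41) on TPM. MFN2 differed by 0.27 (-0.08 to 0.62, adjusted p = 0.514) on scaled TPM. The interval was -0.17 to 0.11 for YME1L1 and -0.36 to 0.09 for MIEF1 on scaled TPM.

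**Figure D3:**
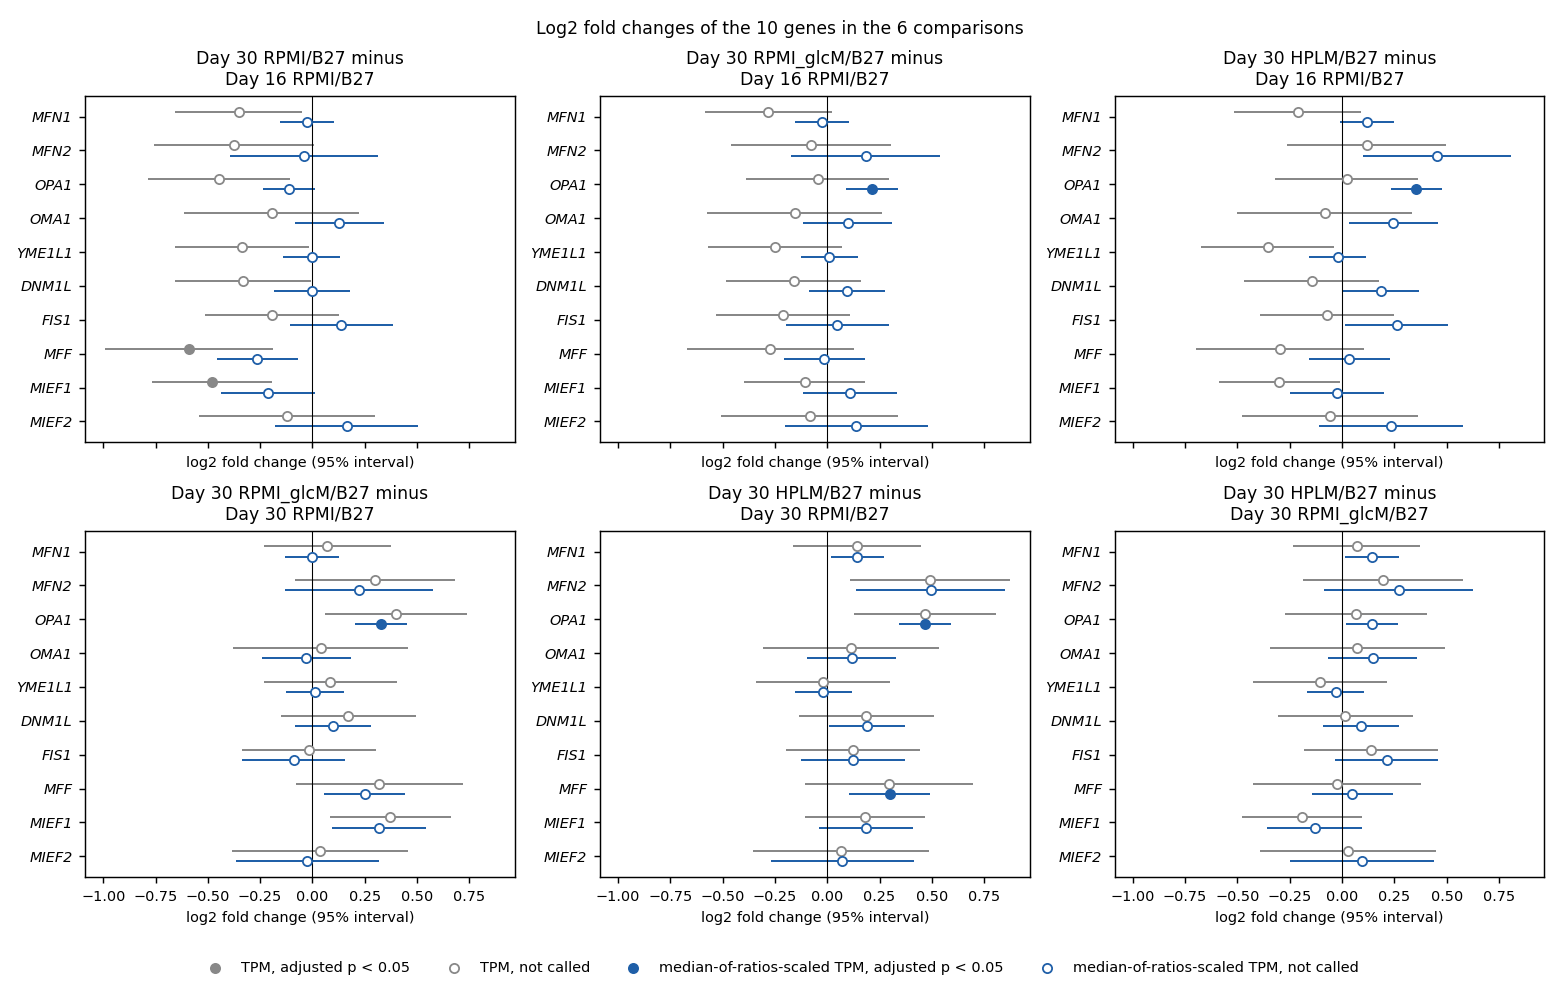
Log2 fold change (x axis) of the 10 genes (y axis) in the 6 comparisons, with 95% intervals from limma, on log2(TPM + 1) in grey and on log2(scaled TPM + 1) in blue, where filled points passed an adjusted p of 0.05. Filled points are MFF and MIEF1 in grey in the first panel, and in blue OPA1 in 4 panels and MFF in Day 30 HPLM/B27 minus Day 30 RPMI/B27.

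The balance of related genes within a library does not depend on the scaling, and it was compared by a two-sided exact permutation test on log2 TPM ratios (4 against 4 libraries, smallest possible p 0.0286, 24 tests). The ratio of DNM1L to OPA1, the fission to the fusion dynamin, was 0.596 to 0.701 in Day 30 RPMI/B27, 0.493 to 0.590 in Day 30 RPMI_glcM/B27 and 0.486 to 0.546 in Day 30 HPLM/B27, after 0.485 to 0.635 at day 16. It was lower without overlap in both day 30 media than in Day 30 RPMI/B27, by -0.23 and -0.28 on the log2 scale, each at an exact p of 0.0286 and an adjusted p of 0.229. How often other pairs of genes separated in this way was not examined. The ratio of MIEF2 to MIEF1 was 0.793 to 1.56 at day 16 and 1.65 to 2.19 in Day 30 RPMI/B27, a log2 difference of 0.47 (exact p = 0.0286, adjusted p = 0.229). MFN2 exceeded MFN1 by 2.97 to 5.70 times in single libraries, and the mean log2 ratio was 1.90 at day 16, 1.88 in Day 30 RPMI/B27, 2.11 in Day 30 RPMI_glcM/B27 and 2.23 in Day 30 HPLM/B27. The ratio of YME1L1 to OMA1 had its lowest mean, 2.56, in Day 30 HPLM/B27 and its highest, 3.12, at day 16. None of the 24 comparisons passed after adjustment, and 3 had the smallest p that 4 against 4 libraries allow. Even that smallest p passes the adjustment only if most of the 24 tests reach it. The adjusted values therefore cannot decide whether a single ratio differed.

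**Figure D4:**
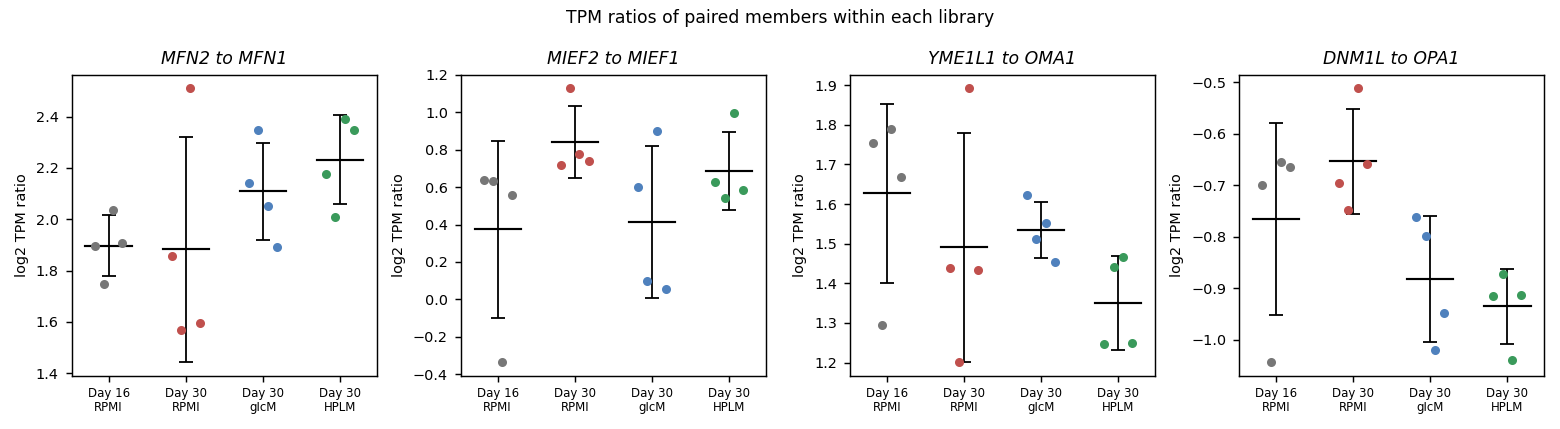
Log2 of the TPM ratio (y axis, not starting at 0) of 4 pairs of members in each library by group, with means and 1 SD (n = 4). DNM1L to OPA1 is highest in Day 30 RPMI/B27, at a mean of -0.65, and lies at -0.88 in Day 30 RPMI_glcM/B27 and at -0.94 in HPLM/B27.

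Genes that work with the members were counted from lists written by hand. In Day 30 HPLM/B27 against Day 30 RPMI/B27 on scaled TPM, where the median of all genes was -0.01, the median log2 fold change was 0.13 for fusion partners, 0.21 for fission partners, 0.11 for ubiquitin, kinase and phosphatase regulators, 0.39 for MICOS, 0.28 for mitophagy receptors, 0.42 for import and porin genes and 0.14 for biogenesis regulators. Of 10 fusion partners, among them MIGA2, a lipid-linked fusion protein of the outer membrane, and the prohibitins PHB and PHB2, which stabilise OPA1, 0 were called on TPM between Day 30 HPLM/B27 and Day 30 RPMI/B27, with a median log2 fold change of 0.13. On scaled TPM 2 rose, MIGA2 by 0.48 (SE 0.10, limma adjusted p = 0.00521) and PHB2 by 0.32 (SE 0.08, adjusted p = 0.0119). Over all genes in this comparison, 1.51% were higher and 0.893% lower on TPM, and 7.05% higher and 5.87% lower on scaled TPM. In Day 30 RPMI_glcM/B27 against Day 30 RPMI/B27, 4 of the 10 rose on scaled TPM and none fell, against 6.17% of all genes higher and 5.89% lower, MIGA2 by 0.49, PHB2 by 0.43, PHB by 0.36 and the inner-membrane protease AFG3L2 by 0.23. AFG3L2 also rose from day 16 to day 30 on scaled TPM in all 3 media, from 82.9 ± 2.32 at day 16 to 119 ± 8.42, 140 ± 3.09 and 135 ± 8.47 (SD, n = 4).

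Of 9 fission partners, MTFP1, an inner-membrane protein that promotes division, was the gene called on both scales among the media at day 30. On TPM it was 5.54, 5.20, 6.10 and 4.44 in Day 30 RPMI/B27 and 12.5, 15.4, 16.4 and 14.8 in Day 30 HPLM/B27, higher without overlap, as were 4.13% of all genes. Its log2 fold change was 1.32 on both scales (SE 0.20 and limma adjusted p = 0.00180 on TPM), and in Day 30 RPMI_glcM/B27 it rose by 1.07 (SE 0.20, adjusted p = 0.01001). On scaled TPM MTFR1L and DNM2, a dynamin, also rose in both of these comparisons. From day 16 to Day 30 RPMI/B27, 5 of 9 fission partners fell on TPM and none rose. Over all genes 17.8% were lower and 2.08% higher, with a median gene at -0.28. The partners that fell included MTFP1 (-0.76), the phosphatase PGAM5 (-0.74), INF2 (-0.72), an actin-nucleating formin, and DNM2 (-0.52). On scaled TPM 2 fell and 1 rose, against 8.91% of all genes lower and 8.62% higher.

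Of 9 ubiquitin, kinase and phosphatase regulators, AKAP1, the outer-membrane anchor of protein kinase A, rose on scaled TPM by 0.73 (SE 0.14, limma adjusted p = 0.00427) in HPLM/B27 and by 0.58 (SE 0.14, adjusted p = 0.0185) in RPMI_glcM/B27 against RPMI/B27. The ligase MUL1 rose by 0.52 and 0.50 in the same comparisons, and the deubiquitinase USP30 fell by 0.40 and 0.33. PPP3CA, a catalytic subunit of calcineurin, fell from day 16 in all 3 media on both scales, by 0.86, 0.83 and 0.76 on TPM. Of 7 genes of the MICOS complex, which shapes cristae together with OPA1, CHCHD3 rose in both media against RPMI/B27 on TPM, by 0.73 (SE 0.09, limma adjusted p = 0.000647) in RPMI_glcM/B27 and 0.59 (SE 0.09, adjusted p = 0.00260) in HPLM/B27, and IMMT (mitofilin) did so on scaled TPM by 0.24 and 0.45. The other 5 genes of the complex were called in neither.

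Among 7 mitophagy receptors BNIP3 rose on both scales in both media against RPMI/B27, by 0.95 (SE 0.15, limma adjusted p = 0.00392) and 0.93 (SE 0.15, adjusted p = 0.00332) on TPM. On scaled TPM 3 of the 7 rose and 1 fell in RPMI_glcM/B27, against 6.17% of all genes higher and 5.89% lower. In HPLM/B27 4 rose and 0 fell, against 7.05% of all genes higher and 5.87% lower. Of 12 import and porin genes 4 rose and none fell on TPM in each medium against RPMI/B27, TOMM40, TIMM44, HSPA9 and VDAC1 in both, and 7 and 8 rose on scaled TPM in RPMI_glcM/B27 and HPLM/B27. The shares of all genes higher were 1.36% and 1.51% on TPM and 6.17% and 7.05% on scaled TPM. These genes carry general mitochondrial functions, and VDAC1, the outer-membrane porin, differed by 0.67 and 0.76. Of 9 biogenesis regulators 2 rose on TPM in each of these comparisons. PPARGC1A, the coactivator that drives mitochondrial gene programmes, was 37.8, 32.6, 28.6 and 22.7 TPM in Day 30 RPMI/B27, 59.8, 67.8, 56.5 and 48.6 in Day 30 RPMI_glcM/B27 and 63.5, 79.7, 92.3 and 76.6 in Day 30 HPLM/B27, with log2 fold changes of 0.93 (SE 0.16, limma adjusted p = 0.00589) and 1.34 (SE 0.16, adjusted p = 0.000209). ESRRA, its nuclear receptor partner, differed by 0.90 and 1.05. Between HPLM/B27 and RPMI_glcM/B27 at day 30, PPARGC1A was the 1 gene of these lists called, on scaled TPM at 0.49 (SE 0.09, limma adjusted p = 0.0171).

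**Figure D5:**
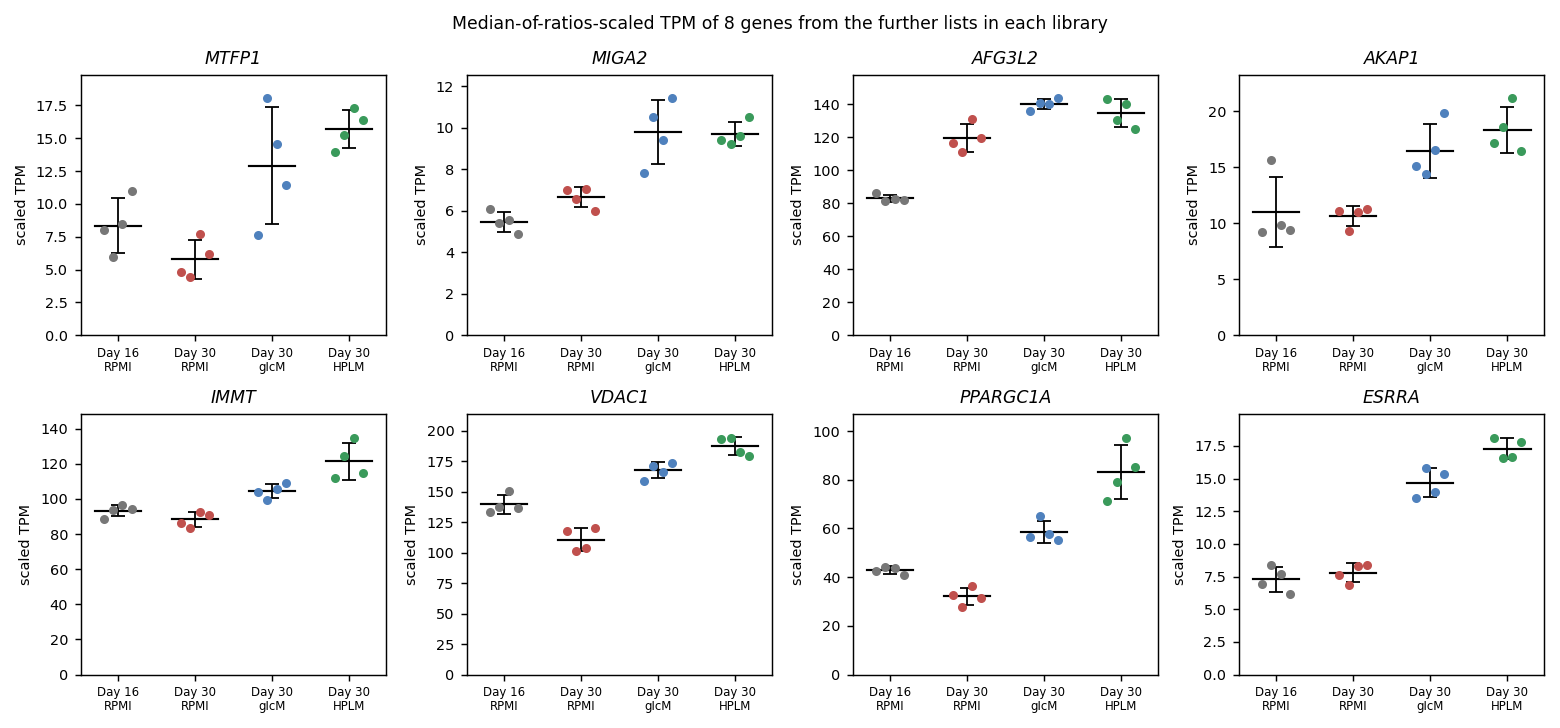
Scaled TPM (y axis, from 0) in the 16 libraries of 8 genes picked for display from those called in the further lists, with group means and 1 SD (n = 4). PPARGC1A rises from a mean of 32.1 in Day 30 RPMI/B27 to 58.7 in Day 30 RPMI_glcM/B27 and 83.2 in Day 30 HPLM/B27, and MTFP1 has a wide spread in Day 30 RPMI_glcM/B27.

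Genes whose scaled pattern over the 16 libraries was most like a member's were taken from 9753 genes averaging 5 TPM or more, as a description, since the libraries share groups and scaling. For OPA1 they were TMEM38A, a cation channel of the sarcoplasmic reticulum (Pearson r = 0.95), GOT1, the cytosolic aspartate aminotransferase (0.95), and PPARGC1A (0.95). For MFN2 they were PICALM (0.93), ARHGAP35 (0.93) and TEAD3 (0.92). The MFN2 pattern includes replicate 3 of Day 30 RPMI/B27, at 196 scaled TPM against 101 to 112 in the rest of its group. The part of that library in these correlations was not tested. Between members, MFN2 and DNM1L had an r of 0.76, MFN2 and OPA1 0.63, and OPA1 and YME1L1 -0.04.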

How the data were processed

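Total RNA of 16 libraries, 4 biological replicates in each of 4 groups per the labels, was sequenced by the authors from stranded Takara SMARTer libraries, and reads were aligned to hg38 with STAR 2.5.3a and counted per gene with featureCounts 2.0.3. The series text gives 3 wells per medium where the labels give 4 libraries. The authors deposited TPM, in which a gene's reads are corrected for its length and each library sums to 1000000. The annotation, gene lengths and strand setting are not given in the sources used here.

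From these values, log2(TPM + 1) of the 16122 genes averaging 1 TPM or more was fitted with limma 3.58.1 (lmFit, eBayes with a trend) in R 4.3.3, all 4 groups in the fit, with Benjamini-Hochberg adjustment over all genes in each of 6 comparisons and a threshold of 0.05. A pseudocount of 1 understates the change of low genes. Whole reads were recovered by comparing each gene's TPM across the libraries for all 31047 genes above 0, within 0.01 of a whole number, and the fits were tested on simulated data. Recovered reads per library ranged from 7744768 to 16183655. All 10 members are named; from each further list at most 4 called genes per comparison are named, by size of change. The members, lists and comparisons were chosen with earlier results of these data known. Ratios were tested by exact permutation with scipy 1.17.1. Alternatives were another pseudocount, all genes above 0, median-of-ratios scaling, limma-voom on recovered reads (mean of 10 or more), 2 groups in the fit, a replicate block, RNR1 as a covariate and each library left out. Fits without the 2 libraries highest in RNR1, and scaled fits leaving out libraries, were chosen after seeing the data. The genes most like DNM1L in pattern are not reported here.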

Additional observations from a re-analysis of the deposited data

Results flagged for a closer look

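A library far from the other 3 of its group, by Dixon's criterion, was found in 7 of 96 groups of 4 examined over members, scales and ratios, where chance marks about 1 in 20. MFN2 came to 195.6 scaled TPM in replicate 3 of Day 30 RPMI/B27 against 101 to 112 in the others, and without it MFN2 was called between HPLM/B27 and RPMI/B27 as given above. MFF was 41.9 scaled TPM in replicate 2 of the same group against 34.0 to 34.8. OMA1 was 22.6 TPM in replicate 4 of Day 30 RPMI_glcM/B27 against 26.01 to 26.5, and 27.2 scaled TPM in replicate 2 of Day 16 RPMI/B27 against 22.7 to 23.3. The log2 ratio of MIEF2 to MIEF1 was -0.33 in replicate 3 of Day 16 RPMI/B27 against 0.56 to 0.64, where MIEF2 held 57 reads, and 1.13 in replicate 2 of Day 30 RPMI/B27 against 0.72 to 0.78. The log2 ratio of DNM1L to OPA1 was -1.04 in replicate 2 of Day 16 RPMI/B27 against -0.70 to -0.65.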

How the results depend on the processing

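On TPM the genes called numbered 3203 in Day 30 RPMI/B27 against day 16, 3400 in RPMI_glcM/B27 against day 16, 4088 in HPLM/B27 against day 16, 354 in RPMI_glcM/B27 against RPMI/B27, 388 in HPLM/B27 against RPMI/B27 and 11 in HPLM/B27 against RPMI_glcM/B27, and the members called 2 in Day 30 RPMI/B27 against day 16, 0 in RPMI_glcM/B27 against day 16, 0 in HPLM/B27 against day 16, 0 in RPMI_glcM/B27 against RPMI/B27, 0 in HPLM/B27 against RPMI/B27 and 0 in HPLM/B27 against RPMI_glcM/B27. A pseudocount of 0.1 changed no direction and no call of a member.

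With all genes above 0 tested the members called numbered 1 in Day 30 RPMI/B27 against day 16.

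With median-of-ratios scaling the genes called numbered 1945 in RPMI_glcM/B27 against RPMI/B27, 2083 in HPLM/B27 against RPMI/B27 and 262 in HPLM/B27 against RPMI_glcM/B27, and the members called numbered 0 in Day 30 RPMI/B27 against day 16, 1 in RPMI_glcM/B27 against day 16, 1 in HPLM/B27 against day 16, 1 in RPMI_glcM/B27 against RPMI/B27 and 2 in HPLM/B27 against RPMI/B27. The log2 fold changes whose sign turned were OMA1 0.13, FIS1 0.14 and MIEF2 0.16 in Day 30 RPMI/B27 against day 16, MFN2 0.18, OPA1 0.21, OMA1 0.097, YME1L1 0.0094, DNM1L 0.097, FIS1 0.049, MIEF1 0.11 and MIEF2 0.14 in RPMI_glcM/B27 against day 16, MFN1 0.12, OMA1 0.24, DNM1L 0.19, FIS1 0.26, MFF 0.035 and MIEF2 0.23 in HPLM/B27 against day 16, OMA1 -0.030 and MIEF2 -0.024 in RPMI_glcM/B27 against RPMI/B27, MFF 0.049 in HPLM/B27 against RPMI_glcM/B27.

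With limma-voom on recovered reads the genes called numbered 1985 in RPMI_glcM/B27 against RPMI/B27, 2501 in HPLM/B27 against RPMI/B27 and 271 in HPLM/B27 against RPMI_glcM/B27, and the members called numbered 1 in Day 30 RPMI/B27 against day 16, 1 in RPMI_glcM/B27 against day 16, 2 in HPLM/B27 against day 16, 1 in RPMI_glcM/B27 against RPMI/B27 and 3 in HPLM/B27 against RPMI/B27. The log2 fold changes whose sign turned were OMA1 0.13, FIS1 0.13 and MIEF2 0.18 in Day 30 RPMI/B27 against day 16, MFN2 0.19, OPA1 0.21, OMA1 0.091, YME1L1 0.0095, DNM1L 0.10, FIS1 0.035, MIEF1 0.13 and MIEF2 0.15 in RPMI_glcM/B27 against day 16, MFN1 0.12, OMA1 0.24, DNM1L 0.19, FIS1 0.26, MFF 0.038 and MIEF2 0.26 in HPLM/B27 against day 16, OMA1 -0.036 and MIEF2 -0.031 in RPMI_glcM/B27 against RPMI/B27, MFF 0.060 in HPLM/B27 against RPMI_glcM/B27.

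With 2 groups in the fit the genes called numbered 998 in Day 30 RPMI/B27 against day 16, 45 in RPMI_glcM/B27 against RPMI/B27, 81 in HPLM/B27 against RPMI/B27 and 33 in HPLM/B27 against RPMI_glcM/B27, and the members called numbered 0 in Day 30 RPMI/B27 against day 16, 1 in RPMI_glcM/B27 against day 16 and 1 in HPLM/B27 against day 16.

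With RNR1 (log2 TPM) as covariate the genes called numbered 1385 in Day 30 RPMI/B27 against day 16, 727 in RPMI_glcM/B27 against RPMI/B27, 1104 in HPLM/B27 against RPMI/B27 and 91 in HPLM/B27 against RPMI_glcM/B27, and the members called numbered 0 in Day 30 RPMI/B27 against day 16. The log2 fold changes whose sign turned were OMA1 0.096 and MIEF2 0.011 in Day 30 RPMI/B27 against day 16, MFN2 0.050, OPA1 0.12 and OMA1 0.012 in RPMI_glcM/B27 against day 16, OMA1 0.062 and MIEF2 0.0099 in HPLM/B27 against day 16, MFN1 -0.035, OMA1 -0.084, YME1L1 -0.027 and MIEF2 -0.020 in RPMI_glcM/B27 against RPMI/B27, OMA1 -0.034 and MIEF2 -0.0015 in HPLM/B27 against RPMI/B27, DNM1L -0.0042 in HPLM/B27 against RPMI_glcM/B27.

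Without the 2 libraries of Day 30 RPMI/B27 highest in RNR1 the genes called numbered 1558 in Day 30 RPMI/B27 against day 16, 1669 in RPMI_glcM/B27 against RPMI/B27 and 3367 in HPLM/B27 against RPMI/B27, and the members called numbered 0 in Day 30 RPMI/B27 against day 16. The log2 fold changes whose sign turned were OMA1 0.24, FIS1 0.061 and MIEF2 0.13 in Day 30 RPMI/B27 against day 16, MFN1 -0.20, OMA1 -0.40, YME1L1 -0.20, DNM1L -0.10, MFF -0.055 and MIEF2 -0.21 in RPMI_glcM/B27 against RPMI/B27, MFN1 -0.13, OMA1 -0.33, DNM1L -0.085, FIS1 -0.13, MFF -0.080 and MIEF2 -0.18 in HPLM/B27 against RPMI/B27.

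With the replicate block the genes called numbered 721 in RPMI_glcM/B27 against RPMI/B27, 732 in HPLM/B27 against RPMI/B27 and 48 in HPLM/B27 against RPMI_glcM/B27, and the members called numbered 5 in Day 30 RPMI/B27 against day 16 and 1 in HPLM/B27 against day 16. Replicate numbers were shared by label only: deviations of same-numbered libraries correlated from -0.066 to 0.211, over 0.1 in 6 of 24 pairs, and 7 of 16 libraries correlated best with their own number, a hint from the data and not the design. Every group holds each replicate number, so the block could not change a log2 fold change or its direction, only its error.

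With each library left out in turn, the genes called ran from 1761 to 5012 in Day 30 RPMI/B27 against day 16, 143 to 441 in RPMI_glcM/B27 against RPMI/B27, 187 to 519 in HPLM/B27 against RPMI/B27 and 1 to 5 in HPLM/B27 against RPMI_glcM/B27, and the members called from 0 to 5 in Day 30 RPMI/B27 against day 16. Log2 fold changes that crossed 0 ran, in Day 30 RPMI/B27 against day 16, for MIEF2 from -0.31 to 0.018, in RPMI_glcM/B27 against day 16, for MFN2 from -0.15 to 0.020, OPA1 from -0.10 to 0.011 and MIEF2 from -0.27 to 0.054, in HPLM/B27 against day 16, for OPA1 from -0.035 to 0.098, OMA1 from -0.16 to 0.026, FIS1 from -0.15 to 0.0021 and MIEF2 from -0.25 to 0.083, in RPMI_glcM/B27 against RPMI/B27, for MFN1 from -0.044 to 0.19, OMA1 from -0.14 to 0.25, YME1L1 from -0.055 to 0.20, FIS1 from -0.18 to 0.097 and MIEF2 from -0.051 to 0.17, in HPLM/B27 against RPMI/B27, for OMA1 from -0.062 to 0.32, YME1L1 from -0.16 to 0.098, FIS1 from -0.045 to 0.24 and MIEF2 from -0.023 to 0.20, in HPLM/B27 against RPMI_glcM/B27, for MFN1 from -0.013 to 0.12, DNM1L from -0.061 to 0.084, MFF from -0.13 to 0.066 and MIEF2 from -0.056 to 0.10, as did the log2 ratio of MFN2 to MFN1 in Day 30 RPMI/B27 against day 16 from -0.22 to 0.090, the log2 ratio of MIEF2 to MIEF1 in RPMI_glcM/B27 against day 16 from -0.20 to 0.16 and the log2 ratio of YME1L1 to OMA1 in RPMI_glcM/B27 against RPMI/B27 from -0.053 to 0.18.

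No sign that turned was of a member called on TPM in that comparison, OPA1 in RPMI_glcM/B27 against day 16 turned to a called value with scaling and with limma-voom, and the cause was not tested. Signs that turned were 20 of 60 with median-of-ratios scaling, 20 with limma-voom, 14 with the RNR1 covariate, 40 of 480 with 1 library left out and 15 of 30 without the 2 libraries. MIEF1 and MIEF2 rested on 57 to 171 reads a library, which limits the precision of their values.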
